A study of Mus musculus with 16 samples.

Results

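The heterogeneous nuclear ribonucleoprotein (hnRNP) genes are described here at the level of the 3′-UTRs of their mRNAs. The members were the 10 genes Hnrnpd, Hnrnpa0, Hnrnpa1, Hnrnpa2b1, Hnrnpa3, Hnrnpc, Hnrnpf, Hnrnpk, Hnrnpl and Hnrnpu, chosen by gene symbol out of 14925 genes with a symbol. They held 40 of 30622 rows of the deposited tables, which were 32 distinct 3′-UTR regions out of 26892. Several regions of a gene are 3′-UTRs of different transcripts that start at the same base or overlap, so that their reads are partly the same reads and the regions of a gene are not independent.

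RIP-seq, the sequencing of RNA precipitated together with a protein, was done on mouse BMDMs, macrophages differentiated in culture from bone marrow. RNA bound to CPEB4 was recovered with an anti-CPEB4 antibody after formaldehyde crosslinking and sonication (RIP), and the RNA of the lysate before the antibody step was sequenced in parallel (Input). The wild-type (WT) libraries came from the culture numbered 76 and the CPEB4 KO libraries from the culture numbered 73, and the labels give the strain C57BL/6J 129 for both. The KO animals lacked Cpeb4 in all tissues. Each culture was left untreated or received LPS (lipopolysaccharide), which activates macrophages through a receptor for bacterial components, at 10 ng/ml for 9 h. Each of the 8 combinations of genotype, treatment and assay was 1 library, so no difference below has a replicate check. A p-value below compares the reads of 2 libraries, not the conditions. Intervals cover counting error only, and not the variation between cultures, precipitations or libraries. The labels give ribosomal RNA depletion for the Input samples.

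hnRNPs are abundant RNA-binding proteins that coat nascent transcripts and take part in splicing, export, stability and translation of mRNAs. Many of them regulate their own mRNAs and each other through alternative splicing, often by way of transcripts that are removed by nonsense-mediated decay (NMD), a pathway that degrades mRNAs with an early stop codon. CPEB4 belongs to the family of proteins that bind CPEs, the cytoplasmic polyadenylation elements, which are U-rich stretches of 3′-UTRs, usually near the polyadenylation signal (the hexamer that directs cleavage and polyadenylation). Through CPEs it lengthens or shortens poly(A) tails and thereby changes translation and stability of its targets. Hnrnpd encodes AUF1, which binds AU-rich elements of inflammatory mRNAs and is best known for promoting their decay in stimulated macrophages.

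The 8 libraries held 467696 to 2492300 reads over 3′-UTRs, fewest in the untreated KO RIP. The Cpeb4 3′-UTR had 130 and 136 reads per 1000000 3′-UTR reads (RPM) in the WT Inputs (untreated and LPS) and 52.0 and 52.6 RPM in the KO Inputs. In the RIPs it had 836 and 770 RPM in WT and 257 and 367 RPM in KO. The lower level in KO fits the labels in direction, but whether this 3′-UTR lies inside the deleted part was not given in the sources used here. Its log2 ratios of RIP over Input were 2.67 and 2.50 in WT and 2.29 and 2.79 in KO (untreated and LPS). The RIP was thus enriched for this 3′-UTR in both genotypes. Of 9 macrophage markers, 8 were in the tables and all 8 had over 3 reads in every library. Their summed level ranged from 1764 to 4482 RPM, and no marker of granulocytes, T cells, B cells, erythroid cells, dendritic cells or stroma had over 3 reads in any library. Il1b, an LPS-induced cytokine gene, went from 3 to 983 reads in the WT Inputs and from 3 to 764 reads in the KO Inputs.

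The sequences of the Hnrnpd 3′-UTR where its annotated isoforms part are shown first, because the RIP reads over this gene were unevenly spread over nested isoform regions. Coordinates and sequence are those of the GRCm38 (mm10) mouse reference genome, and all lines run 5′ to 3′ on the strand of the mRNA. Capitals in the first line mark the 17 bases that the 183-base Hnrnpd region has beyond the 166-base region. In the other lines capitals mark a match to a consensus CPE, searched as TTTTAT or TTTTAAT on the mRNA strand only, or to a polyadenylation hexamer, searched as AATAAA or ATTAAA. The long form of the CPE can overlap a hexamer, so that the same bases can count for both.
Hnrnpd, end of the 166-base region and the next 17 bases, chr5:99961151-99961180, minus strand: agaatttgctttcATTGTTTTATTTCTTAA
Hnrnpd, hexamer at base 148, chr5:99961169-99961198, minus strand: ttctgagttctcATTAAAagaatttgcttt
Hnrnpd, CPE at base 210, chr5:99961107-99961136, minus strand: tatcaatttgtgTTTTATgccccccctccc
Hnrnpd, CPE at base 307, chr5:99961010-99961038, minus strand: tcttactggttTTTTAATaaatccttttg
Hnrnpa0, CPE at base 450, chr13:58126929-58126958, minus strand: atcatttttacgTTTTATttttaataaatc
Hnrnpu, CPE at base 259, chr1:178329078-178329107, minus strand: cagggttctacaTTTTATctgtaaaatgtg
Hnrnpa2b1, CPE at base 284 of the 310-base region, chr6:51461133-51461162, minus strand: tttaaatacaagTTTTATaaaataaatact
The 166-base region holds a hexamer close to its end and no consensus CPE, and the first consensus CPE lies within the 17 bases that follow it. The remaining lines are shown as the sites of the other genes whose RIP reads are described below.

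Hnrnpd, at chr5:99958426-99961333 on the minus strand, had 8 distinct regions. Of these, 7 are nested and start at the same base, with lengths of 166, 183, 331, 332, 336, 736 and 2908 bases, and the eighth is a separate region of 330 bases at chr5:99962283-99962612. In the GENCODE M21 annotation of the same build, the 166-, 183- and 331-base regions and the separate region are 3′-UTRs of transcripts classed as NMD targets, and the others belong to protein-coding transcripts. The first 166 bases are therefore also part of the 3′-UTR of the coding transcripts, and the reads there cannot be assigned to one or the other. The separate region includes 65 bases that are coding sequence in other transcripts.

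The longest Hnrnpd region had 27 reads in the WT Input and 51 in the KO Input without treatment, and 97 and 81 reads after LPS. In the RIPs it had 116 reads in WT and 16 in KO without treatment, and 244 and 38 reads after LPS. In RPM, the WT RIPs (69.6 and 97.9) were above the KO RIPs (34.2 and 43.6) in both treatments, while the 4 Inputs ranged from 29.1 to 53.9. The 166-base region had 13, 36, 56 and 57 reads in the Inputs (WT untreated, KO untreated, WT LPS, KO LPS) and 75, 1, 164 and 20 reads in the RIPs in the same order. So the untreated KO RIP, at 2.1 RPM, stood below all other libraries over these 166 bases, and its single read carries every ratio that uses it.

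Going outward along the nested regions, the WT RIPs had 6, 8, 11 and 16 further reads (untreated) and 13, 15, 18 and 34 further reads (LPS) in the steps of 17, 153, 400 and 2172 bases. The KO RIPs had 2, 1, 3 and 9 further reads without treatment and 3, 3, 2 and 10 after LPS over the same steps. Reads past the first 166 bases and before the last 2172 were nearly absent from the Inputs, at 0 to 2 reads a step. The separate 330-base region had 0 reads in both untreated Inputs and 3 and 2 reads in the LPS Inputs (WT and KO), against 22 and 36 reads in the WT RIPs and 1 and 10 reads in the KO RIPs (untreated and LPS). It was thus read mostly in RIP libraries, of both genotypes after LPS.

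**Figure D1:**
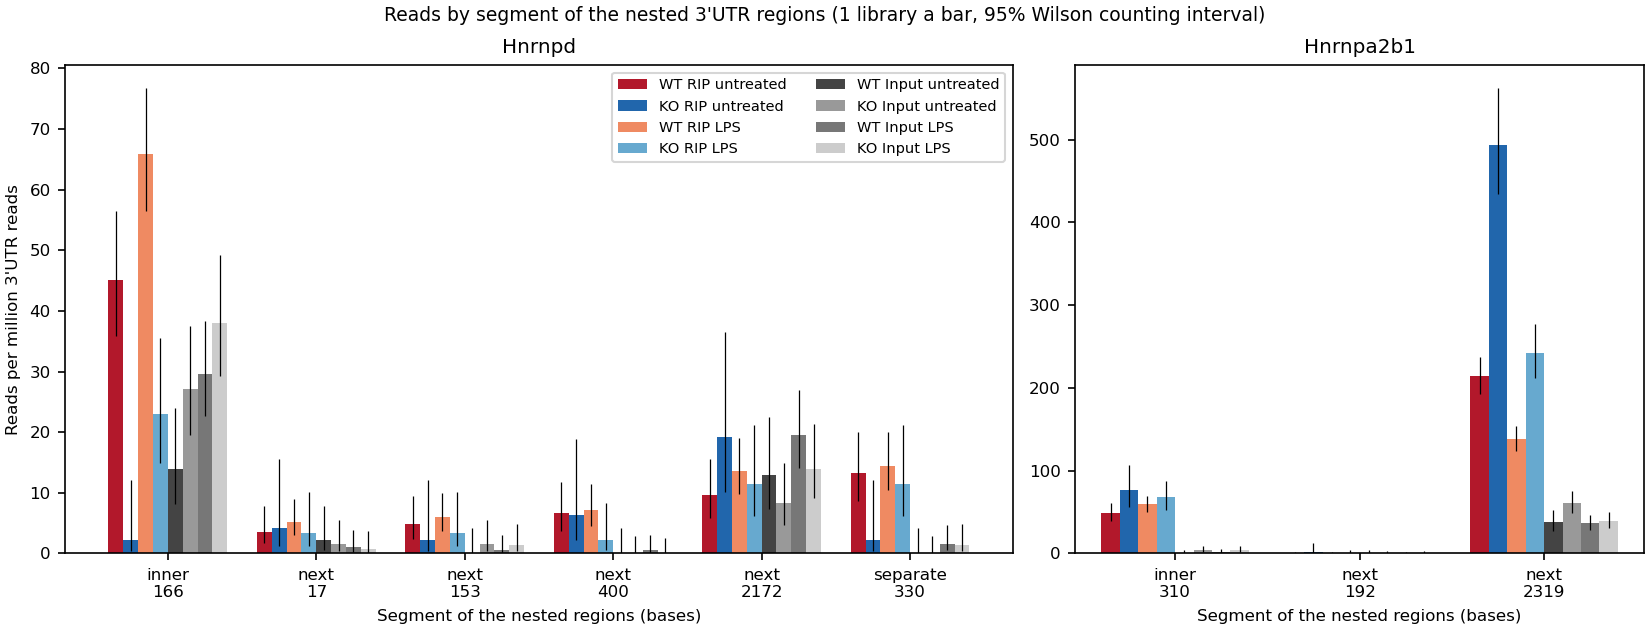
RPM (vertical axis, linear) in each segment of the nested regions of Hnrnpd (left) and Hnrnpa2b1 (right), where "inner" is the shortest region, each "next" is the part by which the following region is longer, and "separate" is the region of Hnrnpd that does not overlap the others; each bar is 1 library with its 95% Wilson counting interval. The first 166 bases of Hnrnpd had 75 reads in the untreated WT RIP and 1 in the untreated KO RIP, and most Hnrnpa2b1 reads of every library lay outside the inner 310 bases.

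The question of the WT over KO comparison was which mRNAs were recovered with the antibody in the presence of CPEB4 and not in its absence. Ratios are log2 ratios of reads + 1, scaled to the 3′-UTR reads of each library, with 95% intervals in brackets. They are relative to the bulk of 3′-UTR reads: scaled to library totals instead, every WT over KO RIP ratio is higher by 0.84 (untreated) or 1.14 (LPS). The 3′-UTR reads were 49.3% and 70.7% of the library totals in the WT RIPs (untreated and LPS). In the KO RIPs they were 27.5% and 32.1%. In the untreated RIPs the values took part in the choice of the members, so they are given as a description. Hnrnpd was at 0.95 [0.22, 1.68] over its longest region, 1.83 over the 736-base region, 2.34 [1.04, 3.64] over the 336-base region and 3.42 [1.39, 5.44] over the 166-base region. The ratio was thus higher the shorter the region, as the count of 1 KO read in the shared first segment fixes. Hnrnpa0 was at 0.55 [0.28, 0.82] and Hnrnpf at 0.97 [0.49, 1.45], Hnrnpk, Hnrnpu and Hnrnpc lay between -0.09 and 0.24, and Hnrnpl was at -0.34. Hnrnpc and Hnrnpl turn positive on library totals. Hnrnpa2b1 went the other way, at -1.12 [-1.34, -0.90]. By the region with the most reads, 2 of 10 genes met the call rule as higher in WT (6.7% of all genes tested did) and 1 as lower (9.33%). Over distinct regions, 10 of 29 were higher (5.71%), all of Hnrnpa0, Hnrnpd or Hnrnpf, and 2 lower (9.73%), of Hnrnpa2b1 and Hnrnpk.

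After LPS, the WT RIP was higher than the KO RIP for Hnrnpa0, Hnrnpd and Hnrnpu and lower for Hnrnpa2b1. A region was examined with a Pearson chi-square test of its reads against all other 3′-UTR reads, and counted as called where the log2 ratio passed 0.5 with a p-value under 0.02 after Benjamini-Yekutieli adjustment, or passed 1.2 with p under 0.02 before adjustment. By the region with the most reads, 3 of 9 genes tested were called higher (10.6% of all genes were) and 1 was called lower (14.9%). The median of the 9 was 0.43, against -0.04 over all genes tested. Over distinct regions, 10 of 28 were higher (9.1%), all of Hnrnpa0, Hnrnpd, Hnrnpk or Hnrnpu, and 2 lower (15.9%), of Hnrnpa2b1 and Hnrnpk. The nested Hnrnpd regions share reads, so these regions are not independent counts. By the edgeR exact test with a preset variation of 0.2, Hnrnpd alone kept calls as higher. Hnrnpd was at 1.14 [0.65, 1.62], a 2.2-fold difference (adjusted p = 0.0002). Its nested regions differed little in this comparison, at 1.35 (736 bases), 1.32 (336 bases) and 1.46 [0.80, 2.11] (166 bases), all of them called. The separate 330-base region, with 36 reads in WT and 10 in KO, was at 0.23 [-0.74, 1.21] and was not called.

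Hnrnpa0 encodes a small hnRNP that binds AU-rich elements and is phosphorylated downstream of p38 in LPS-stimulated macrophages. Its only region, 1517 bases at chr13:58125879-58127395 on the minus strand, had 160, 330, 311 and 380 reads in the Inputs (WT untreated, KO untreated, WT LPS, KO LPS). In the RIPs it had 678 reads in WT and 129 in KO without treatment, and 956 and 222 after LPS. In RPM, the WT RIPs (407 and 384) were above every other library, while the KO RIPs (276 and 255) were close to the KO Inputs (249 and 253). After LPS the WT over KO RIP ratio was 0.59 [0.38, 0.80] (adjusted p = 4.8e-06).

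Hnrnpu encodes a nuclear scaffold protein that binds RNA and chromatin. Its 1249-base region at chr1:178328105-178329353 (minus strand) had 70, 149, 104 and 106 reads in the Inputs, and 510, 128, 530 and 106 reads in the RIPs, in the order WT untreated, KO untreated, WT LPS, KO LPS. The KO RIP went from 274 to 122 RPM with LPS and the WT RIP from 306 to 213 RPM, so the genotypes lay close together without treatment and apart after LPS. The LPS ratio was 0.80 [0.50, 1.09] (adjusted p = 1.4e-05) and the untreated ratio 0.15 [-0.13, 0.43]. The difference of these ratios, tested as a difference of 2 log2 ratios in a comparison added after seeing the data, was 0.64 [0.23, 1.05] and missed the threshold (adjusted p = 0.071, Benjamini-Hochberg over 6683 regions). The untreated ratio in it took part in the choice of the members. The 122-base region of an NMD transcript of Hnrnpu had 9 or fewer reads in every library.

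Hnrnpk encodes a KH-domain protein that binds C-rich RNA and acts in transcription, splicing and translation. Its longest region, 1301 bases at chr13:58391142-58392442 on the minus strand, had 135, 262, 269 and 275 reads in the Inputs and 585, 138, 795 and 223 reads in the RIPs, in the order given for Hnrnpu. The LPS ratio of the RIPs was 0.31 [0.10, 0.53] and was not called. The 179-base region nested in it (chr13:58392233-58392411), the 3′-UTR of another coding transcript, had 223 reads in the WT RIP and 43 in the KO RIP after LPS and was called, at 0.83 [0.37, 1.30] (adjusted p = 0.016). When its reads were set against the rest of the longest region in Fisher's exact test, the log2 odds ratio between the genotypes was 0.70 [0.17, 1.22], which missed the threshold (adjusted p = 0.11, Benjamini-Hochberg). A 679-base region of a separate coding transcript went the other way, at -2.78 with 4 reads in WT and 11 in KO.

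Hnrnpf encodes a protein that binds G-rich RNA and regulates splicing and polyadenylation. Its region of 618 bases at chr6:117925005-117925622 (plus strand) had 8, 27, 33 and 37 reads in the Inputs, the lowest of the 7 members with called WT RIP over Input ratios. In the RIPs it had 278 reads in WT and 39 in KO without treatment, and 308 and 70 after LPS. The WT RIPs (167 and 124 RPM) lay above the KO RIPs (83.4 and 80.3 RPM) and all of these above the Inputs (8.6 to 24.6 RPM). After LPS the RIP ratio was 0.61 [0.23, 0.98] and missed the threshold (adjusted p = 0.05).

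Hnrnpa2b1 encodes a nuclear RNA-binding protein of the A/B group with roles in splicing and RNA transport. Its longest region, 2821 bases at chr6:51460434-51463254 on the minus strand, had 35, 86, 73 and 65 reads in the Inputs and 439, 268, 492 and 270 reads in the RIPs, in the order given for Hnrnpu. Here the KO RIPs (573 and 310 RPM) stood above the WT RIPs (264 and 197 RPM), and both stood far above the Inputs (37.7 to 64.9 RPM). After LPS the RIP ratio was -0.65 [-0.87, -0.44] (adjusted p = 3.6e-07), which turns to 0.49 when scaled to library totals. Only 495 bases of this region lie in exons of its own transcript, so it spans introns as deposited, and reads of unspliced RNA can be counted in it. The inner region of 310 bases (chr6:51461124-51461433), which is wholly exonic, had 82 reads in WT and 36 in KO without treatment and 148 and 59 after LPS, and its LPS ratio of -0.20 [-0.64, 0.23] was not called.

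The other members gave fewer reads. Hnrnpc, whose protein binds U-tracts and packages nascent transcripts, had 173 and 51 RIP reads without treatment and 219 and 56 after LPS (WT and KO) over 1700 bases at chr14:52073380-52075079. Its LPS ratio of 0.43 [0.01, 0.85] was not called. Hnrnpl, whose protein binds CA-rich RNA, had 95 and 33 RIP reads without treatment and 99 and 35 after LPS over 360 bases at chr7:28821907-28822266, and its LPS ratio was -0.04 [-0.59, 0.51]. Hnrnpa1, with 14 annotated bases, and Hnrnpa3, with 169, had at most 10 reads in any library, and neither was called in any comparison by its region with the most reads.

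**Figure D2:**
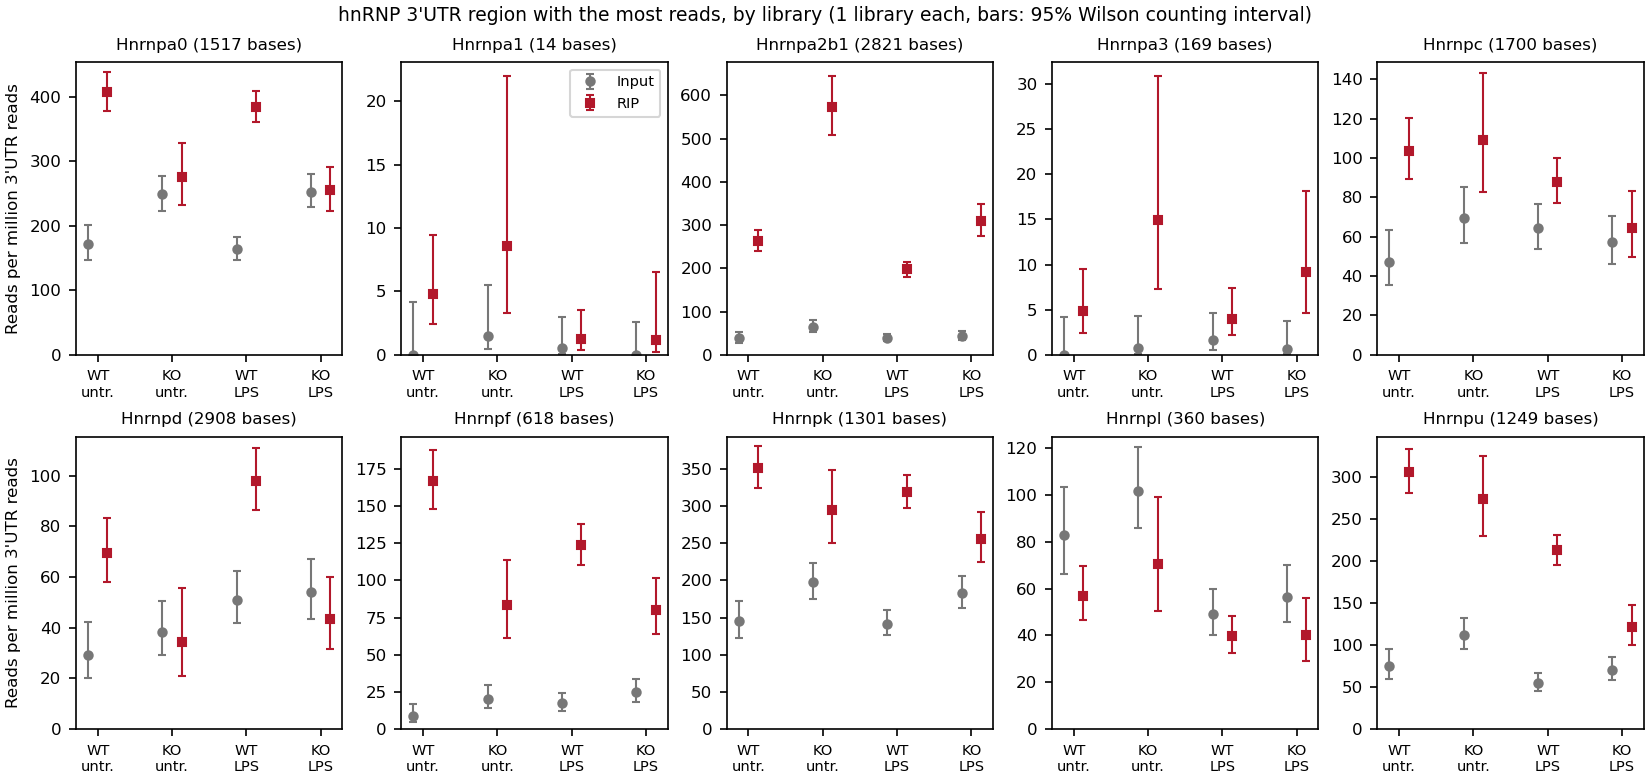
RPM (vertical axis, linear, from 0) in the region with the most reads of each hnRNP gene, for Input and RIP of WT and KO without treatment and after LPS; each point is 1 library with its 95% Wilson counting interval. Hnrnpa0, Hnrnpd, Hnrnpf, Hnrnpk and Hnrnpu were higher in the WT than in the KO RIPs in both treatments. Without treatment the log2 ratios of Hnrnpk and Hnrnpu were small, at 0.24 and 0.15. Hnrnpa2b1 was lower in the WT RIPs on this scale, and its LPS difference turns round on library totals.

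The Inputs were compared between genotypes to see whether the level of these mRNAs differed before the antibody step. In a culture, fewer cells of one kind and less RNA per cell cannot be told apart. Without treatment all 8 genes tested had lower levels in the WT than in the KO Input, with ratios from -1.12 (Hnrnpf) to -0.29 (Hnrnpl) and a median of -0.53, against -0.02 over all genes tested. None was called in either direction (0.854% of all genes were called higher and 1.45% lower), nor was any of their 23 regions tested (0.972% and 1.37%). At an unadjusted chi-square p-value under 0.05, 6 of the 8 were lower, and 8.41% of all genes were. The strongest by p-value was Hnrnpa0, at 172 RPM in WT and 249 RPM in KO, with a ratio of -0.53 [-0.80, -0.25] (adjusted p = 0.11).

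After LPS the Input ratios ranged from -0.62 to 0.16 with a median of -0.29, against 0.04 over all genes. Of the 8 genes, 1 was called lower and 0 higher (1.46% of all genes in each direction), the only one of 25 regions tested (1.34% lower and 1.37% higher). This was Hnrnpa0, at 164 RPM in WT and 253 RPM in KO, with a ratio of -0.62 [-0.84, -0.41] (adjusted p = 1.5e-05). The Hnrnpd Inputs differed by -0.08 [-0.50, 0.34], so its higher level in the WT RIP was not matched by a difference of the Input that this depth could show. For Hnrnpa0 the Input and the RIP went in opposite directions in the same cultures.

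Subtracting the Input ratio from the RIP ratio gives the input-corrected ratio. After LPS it was 1.21 [0.57, 1.86] for Hnrnpd, 1.21 [0.91, 1.51] for Hnrnpa0, 1.16 [0.67, 1.65] for Hnrnpu, 1.10 [0.34, 1.87] for Hnrnpf and 0.68 for Hnrnpk. The intervals of these 5 genes lay above 0, and those of Hnrnpc (0.27), Hnrnpl (0.17) and Hnrnpa2b1 (-0.48 [-1.01, 0.04]) included it. The median of the 8 was 0.89, against -0.07 over the 5478 genes with at least 10 reads in all 4 libraries. Among these genes, whose standard deviation was 0.91, Hnrnpd, Hnrnpa0, Hnrnpu and Hnrnpf lay at percentiles 94.5, 94.3, 93.4 and 92.5. Hnrnpk lay at percentile 81.2. The share of all genes with an interval above 0 was not counted, so the intervals of the 5 genes do not set them apart. The 166-base region of Hnrnpd was at 1.82 [0.98, 2.66] and the 179-base region of Hnrnpk at 1.36. Without treatment, where the RIP ratios had been used in choosing the genes, the values were 1.33 (Hnrnpd), 1.08 (Hnrnpa0), 0.72 (Hnrnpu), 2.09 (Hnrnpf, on 8 WT Input reads), 0.68 (Hnrnpk) and -0.36 (Hnrnpa2b1).

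**Figure D3:**
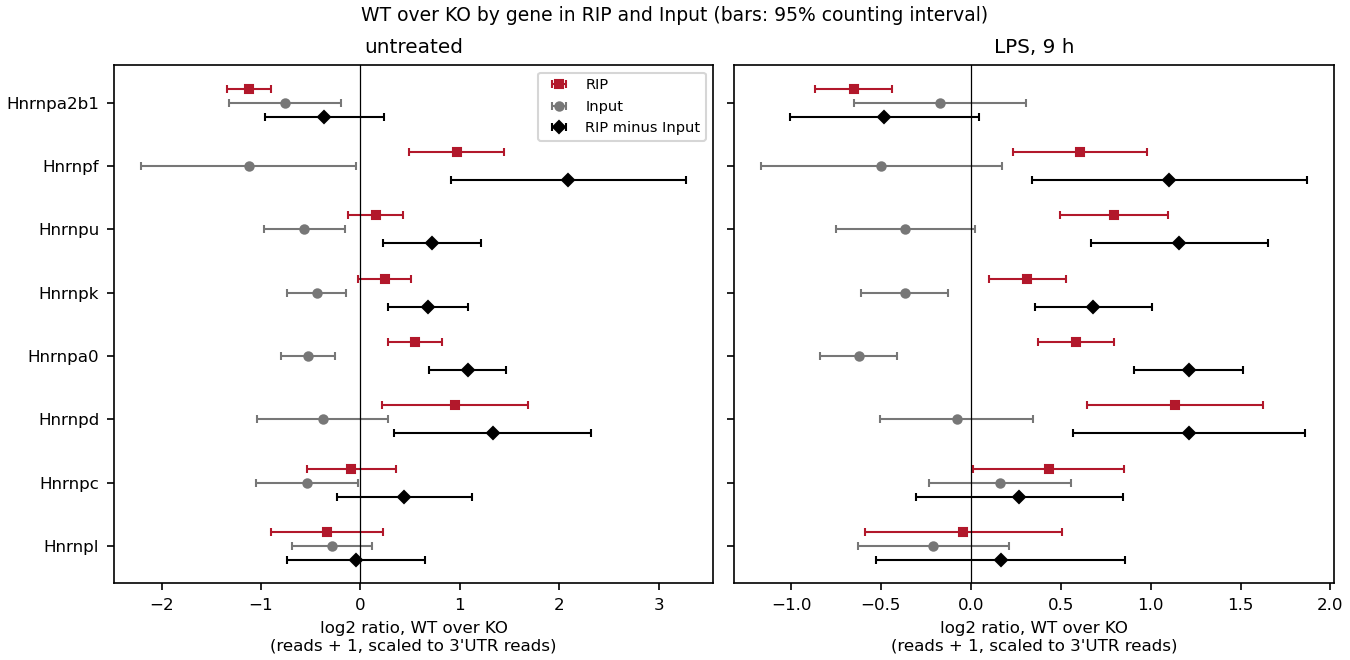
log2 ratio of WT over KO (horizontal axis, reads + 1 scaled to 3′-UTR reads) for the RIPs, the Inputs and the RIP ratio minus the Input ratio, by gene, without treatment (left) and after LPS (right); bars are 95% counting intervals and each ratio rests on 1 library per genotype. Input ratios were below 0 for all 8 genes without treatment, and after LPS the corrected ratios of Hnrnpd, Hnrnpa0, Hnrnpu, Hnrnpf and Hnrnpk had intervals above 0, while Hnrnpa2b1 was below 0 on this scale and above it on library totals.

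RIP over Input was compared within each genotype to see which mRNAs were enriched by the precipitation. In WT, the 3′-UTRs of most members were enriched. Here a region also counted as called higher with a MACS peak score over 500 and a log2 ratio over 0.5. Without treatment, 7 of 8 genes tested were higher in the RIP (23.5% of all genes were) and 0 lower (21.3%). After LPS, 6 of 9 were higher (25.2%) and 0 lower (28.0%). Over distinct regions 22 of 25 were higher without treatment (22.5%) and 0 lower (21.2%), and 21 of 28 higher after LPS (23.9%) and 0 lower (27.7%). The median of the members was 1.25 without treatment and 1.17 after LPS, against 0.03 and -0.03 over all genes.

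By the region with the most reads, the highest WT ratio without treatment was that of Hnrnpf, at 4.11 [3.15, 5.07] on 278 RIP and 8 Input reads, and it was 2.79 [2.28, 3.30] after LPS. Hnrnpa2b1 followed with 2.77 [2.28, 3.26] and 2.34 [1.99, 2.70], and Hnrnpu with a 4.01-fold and a 3.85-fold difference. Hnrnpa0, Hnrnpk and Hnrnpd were at 1.23, 1.26 and 1.22 without treatment and at 1.22 [1.04, 1.41], 1.17 [0.97, 1.37] and 0.93 [0.59, 1.27] after LPS. Hnrnpc was called without treatment, at 1.11 (adjusted p = 8.7e-05), and not after LPS, at 0.45 (adjusted p = 0.11). Hnrnpl had ratios of -0.54 and -0.30 and was not called, and its LPS ratio turns positive on library totals.

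In KO, where the antibody's target was deleted, some of the same 3′-UTRs were also higher in the RIP than in the Input. Without treatment 4 of 8 genes tested were called higher (14% of all genes were) and 0 lower (8.99%), and after LPS 3 of 8 higher (15.6%) and 0 lower (11.8%). Over distinct regions 11 of 25 were higher without treatment (14.3%) and 5 lower (8.35%), all 5 of Hnrnpd and resting on its few KO RIP reads, and after LPS 9 of 27 were higher (16.3%) and 0 lower (11.5%). The untreated RIPs of both genotypes took part in the choice of the members, so the untreated counts of RIP over Input are a description. Hnrnpa2b1 had ratios of 3.13 [2.78, 3.48] and 2.82 [2.44, 3.21], Hnrnpf 2.02 [1.32, 2.71] and 1.69 [1.12, 2.26], and Hnrnpu 1.29 [0.95, 1.63] and 0.79 [0.40, 1.17], without treatment and after LPS. By its longest region Hnrnpk was called without treatment (0.58, adjusted p = 0.0088) and not after LPS (0.48), and both ratios fall below 0 on library totals. Its 679-base region was called after LPS, at 2.05 on 11 RIP reads, a call that is lost on library totals and by the edgeR exact test. Hnrnpa0 was at 0.16 [-0.14, 0.45] and 0.01 [-0.23, 0.25], signs that also turn on library totals. Hnrnpd was at -0.11 and -0.29 [-0.84, 0.26] over its longest region. After LPS its 166-base region was at -0.68 [-1.40, 0.04] on 20 RIP reads and was not called, and without treatment it was at -2.71 on the single RIP read. The Hnrnpu ratio after LPS falls to 0.10 on library totals, where it is called in neither treatment, and the LPS call is also lost by the edgeR exact test. So Hnrnpa2b1 and Hnrnpf, and Hnrnpu on the 3′-UTR scale, were called in both genotypes and both treatments, and Hnrnpa0 and the longest region of Hnrnpd were called higher in WT and not in KO, a contrast whose difference is the input-corrected ratio above. The separate 330-base region of Hnrnpd was called higher in KO as well after LPS, at 2.66 [0.82, 4.50] on 10 RIP and 2 Input reads.

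**Figure D4:**
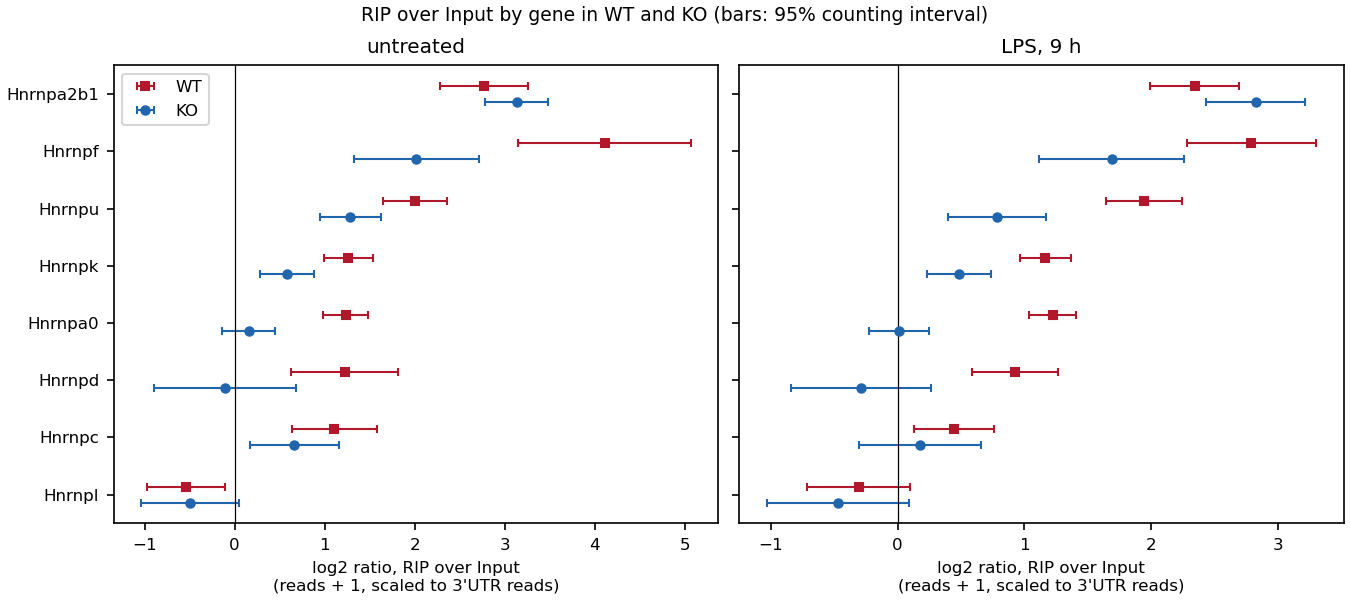
log2 ratio of RIP over Input (horizontal axis, reads + 1 scaled to 3′-UTR reads) by gene in WT and KO, without treatment (left) and after LPS (right); bars are 95% counting intervals, 1 library each. Hnrnpa2b1 was above 2 in both genotypes, Hnrnpf was at 4.11 in WT and 2.02 in KO without treatment, and Hnrnpa0 and Hnrnpd were above 0 in WT and near 0 in KO.

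The deposited peak scores, which give the highest score that MACS assigned to a peak of a RIP against its Input over a 3′-UTR, were highest for Hnrnpf, at 910 (WT LPS) and 712 (WT untreated), with 0 and 55 in KO. Hnrnpu had 825 and 318 in WT and 0 in both KO RIPs, Hnrnpk 584 and 62.8 in WT and 0 in KO, and Hnrnpd 248 and 71.9 in WT and 0 in KO. Hnrnpa2b1 had 791 and 327 in WT and 381 and 555 in KO, all in the order LPS, untreated. Hnrnpc had scores in all 4 RIPs, from 62.5 to 288, and Hnrnpa0 and Hnrnpl had no scored peak. Peaks were thus scored in WT and not in KO for Hnrnpd, Hnrnpk and Hnrnpu. The KO RIPs held 467696 and 871482 3′-UTR reads (untreated and LPS), against 1665914 and 2492300 in the WT RIPs. Whether the scores follow this depth was not tested. A score of 0 is not an absence of enrichment, since Hnrnpu was called higher in RIP over Input in KO in both treatments on the 3′-UTR scale.

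Whether isoform 3′-UTRs of a gene were recovered differently was examined by setting the reads of an inner region against those of the rest of its longest region in Fisher's exact test, which does not depend on how libraries are scaled. For Hnrnpd the reads of WT and KO RIPs were 164 and 20 in the first 166 bases and 80 and 18 in the rest after LPS, a log2 odds ratio of 0.88 [-0.10, 1.87] (Fisher's exact test, adjusted p = 0.44, Benjamini-Hochberg over 1820 genes, 5.77% of which were called). Without treatment the reads were 75 and 1 against 41 and 15, a ratio that the single KO read sets and that was used in the choice of the gene (2.81% of genes were called). RIP and Input of the same genotype were also compared, in a comparison added after seeing the data. The WT odds ratios of Hnrnpd were 0.97 and 0.59 (untreated and LPS) and the KO ratio after LPS was -1.08 [-2.22, 0.05]. None of these 3 passed the threshold. The untreated KO ratio, at -4.60 [-7.17, -2.04], passed it (9.15% of genes did). It rests on the single KO RIP read in the first 166 bases, and the untreated RIPs were used in the choice of the gene.

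For Hnrnpa2b1 the inner 502 bases had 82 RIP reads and 0 Input reads in WT without treatment, against 357 and 35 in the rest of the longest region (adjusted p = 0.0152, with 16.9% of genes called). After LPS the WT reads were 148 and 4 against 344 and 69, a log2 odds ratio of 2.73 [1.33, 4.14] (adjusted p = 2.9e-05, with 24.2% of genes called). In KO the ratios were 1.26 without treatment and 1.36 [0.13, 2.60] after LPS, neither past the threshold (adjusted p = 0.23 and 0.11, with 9.15% and 12.8% of genes called). Over the inner 310 bases alone, the WT RIP was at least 15.2-fold above the untreated WT Input, taking 3 reads as the floor of that Input. These exonic bases, which lie inside the long region and are not its only exonic part, were thus read relatively more often in the WT RIPs than in the WT Inputs. For Hnrnpk the 179-base region was relatively lower in the KO RIP than in the KO Input after LPS, at -0.97 [-1.57, -0.37] (adjusted p = 0.016), and at -0.04 in WT.

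Across genes, levels were compared per kilobase of region. By the region with the most reads, Hnrnpl (136 to 283 RPM per kb in the Inputs), Hnrnpa0 (108 to 167) and Hnrnpk (109 to 152) were highest in the Inputs, Hnrnpu (43.9 to 90.0) and Hnrnpc (27.9 to 40.8) intermediate, and Hnrnpf (13.9 to 39.9), Hnrnpa2b1 (13.4 to 23.0) and Hnrnpd (10.0 to 18.5) lowest. In the WT RIPs Hnrnpl had 158 and 110 RPM per kb, Hnrnpf, Hnrnpa0, Hnrnpk and Hnrnpu reached 170 to 270 RPM per kb, and Hnrnpd 23.9 and 33.7. The Hnrnpd values, and its place among the genes, depend on the region taken. Its first 166 bases, which held most of its WT RIP reads, had 271 and 396 RPM per kb in the WT RIPs. In the Inputs the same bases had 84.3 and 178 RPM per kb in WT and 164 and 229 in KO (untreated and LPS).

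On the 3′-UTR scale few of these 3′-UTRs were called with LPS, and the counts change with the processing, as given in the last section. In the Inputs no member was called higher with LPS in either genotype (13.7% of all genes were in WT and 14.4% in KO). In WT 0 of 8 were called lower (16.5%) and in KO 2 of 8 (20.0%), with 4 of 26 distinct regions in KO (18.2%). The KO counts were thus near the shares of all genes. Hnrnpl fell in KO by 0.84 [-1.23, -0.45] on the log2 scale, from 102 to 56.6 RPM (adjusted p = 0.00085), and was at -0.76 in WT (adjusted p = 0.024). Hnrnpu fell in KO by 0.67 [-1.03, -0.31] (adjusted p = 0.009) and was at -0.47 in WT. Both KO calls are lost with TMM, median of ratios or the edgeR exact test, with Hnrnpl at -0.65 and Hnrnpu at -0.48 with TMM. Hnrnpd was at 0.78 [0.17, 1.38] in WT (adjusted p = 0.26) and 0.48 [-0.02, 0.98] in KO. For none of the 7 members tested did the difference of this LPS response between the genotypes pass the threshold, the largest being that of Hnrnpc at 0.70 [0.05, 1.35] (adjusted p = 0.32, Benjamini-Hochberg).

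In the WT RIPs 0 of 10 members were called higher with LPS (13.8%) and 1 lower (22%), and in the KO RIPs 0 of 9 higher (12.2%) and 2 lower (16.8%). Over distinct regions 2 of 30 were lower in the WT RIP (20.2%), and in the KO RIP 5 of 28 were higher (11.6%), all of Hnrnpd, and 2 lower (15.5%). The untreated RIPs took part in the choice of the members, so these counts are a description, and the 5 Hnrnpd regions share reads. Hnrnpu fell by 1.17 [-1.54, -0.80] in KO, against a median of -0.20 over all genes, and by 0.95 on library totals, where it is still called. In WT it fell by 0.53 [-0.70, -0.35], against a median of -0.24, a call that is lost on library totals (-0.01), with TMM (-0.16), with median of ratios (-0.27) and by the edgeR exact test. Hnrnpa2b1 fell by 0.89 [-1.13, -0.64] in the KO RIP. Both KO calls are lost by the edgeR exact test. In the WT RIP Hnrnpa2b1 was at -0.42, which turns to 0.10 on library totals. Hnrnpd was at 0.49 [0.17, 0.80] in the WT RIP (adjusted p = 0.072). Its 166-base region went from 1 to 20 reads in the KO RIP, again on the single untreated read.

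The regions were compared in sequence with all 3′-UTR regions of like length (within 20%) of the tables. Hnrnpd had 9 consensus CPEs in 2908 bases (6.15% of like-length regions have as many or more), 5 in its first 736 bases (1.54%), 3 in its first 336 (2.16%), 1 in its first 183 (15.4%) and none in its first 166 bases, where 15.8% of like-length regions have one. Hnrnpu had 6 (3.20% have as many or more), Hnrnpa0 5 (10.1%), Hnrnpc 5 (13%), Hnrnpk 4 (13.1%) and Hnrnpa2b1 5 (30.7%). Hnrnpf and Hnrnpl had none, where 44.0% and 29.1% of like-length regions hold at least 1. Other U-rich CPE variants, which the study also counted as CPE motifs, were searched as well. Both regions had 2 matches to them, 1 of which was TTTTGT in each. At least 1 such variant is held by 52.4% (Hnrnpf) and 34.8% (Hnrnpl) of like-length regions. Hnrnpa2b1 also had 14 copies of ATTTA, the core of AU-rich elements, and 2.14% of like-length regions have as many or more. Its 2821-base region spans introns, so its motif counts include intronic bases. Its wholly exonic 310-base region had 1 consensus CPE (26.7% have as many or more) and 3 copies of ATTTA (2.26%). GC content ranged from 32.5% (Hnrnpf) to 41.2% (Hnrnpa0) and was below the median of like-length regions for each of the 8 genes.

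**Figure D5:**
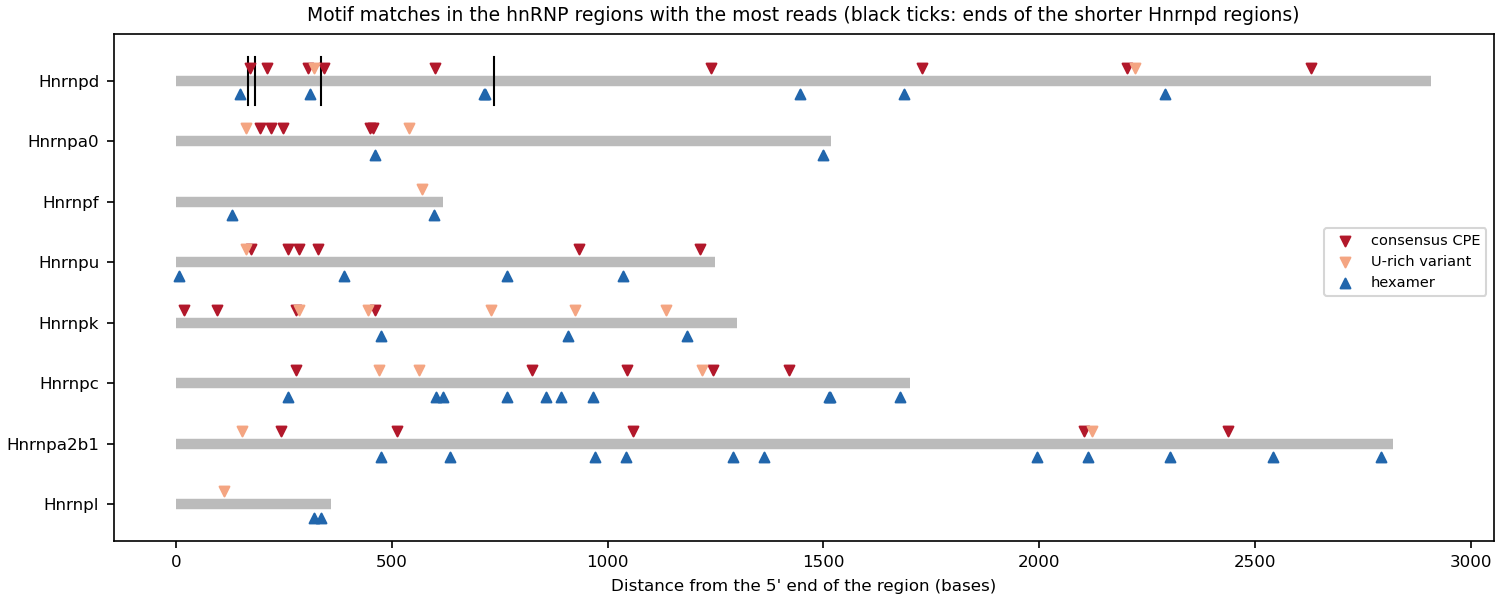
Motif matches along the region with the most reads of each gene; the horizontal axis is the distance in bases from the 5′ end of the region, grey bars are the regions, and black ticks mark the ends of the shorter Hnrnpd regions. Red triangles are the consensus CPEs TTTTAT and TTTTAAT, pale triangles the U-rich variant TTTTGT, and blue triangles the hexamers AATAAA and ATTAAA, and the first consensus CPE of Hnrnpd lies just past its first 166 bases.

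Further genes of the hnRNP group served as a comparison: 17 genes, of which 16 were tested between the RIPs. Without treatment 0 of 16 were called higher in WT (6.7% of all genes were) and 1 lower (9.33%). After LPS 1 was higher (Hnrnpul2, with 10.6% of all genes) and 1 lower (Hnrnpdl, with 14.9%). The median after LPS was -0.07, against -0.04 over all genes. The untreated RIPs took part in the choice of the members, so an untreated difference between the members and these genes is a description. In WT, 10 of 16 and 9 of 16 were higher in the RIP than in the Input (untreated and LPS), with medians of 1.11 and 1.05. Of all genes, 23.5% and 25.2% were. This enrichment was thus shared by members and the other genes. In KO, 8 of 15 and 9 of 16 of the other genes were called higher, with medians of 0.89 and 1.18 (untreated and LPS). Called lower in KO were 0 and 1 (Ptbp1), with 8.99% and 11.8% of all genes. The RIP enrichment of the other genes was thus also present in KO, and its cause was not tested. The 3 with the most WT Input reads were Ptbp1, Hnrnpul2 and Hnrnpab, which encode a repressor of splicing, a scaffold protein related to the product of Hnrnpu and a protein of the A/B group. Ptbp1 had WT over KO RIP ratios of 0.60 and 0.50, Hnrnpul2 of -0.11 and 0.54, and Hnrnpab of 0.27 and 0.46 (untreated and LPS), of which only the LPS ratio of Hnrnpul2 was called.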

How the data were processed

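RIP-seq and Input reads of 1 WT and 1 CPEB4 KO culture of BMDMs, untreated or stimulated with LPS, were analysed from the deposited tables. Per the labels and the methods, the authors aligned single-end reads to mm10 with Bowtie2 2.2.2 in local mode, removed duplicates with sambamba, and deposited the read count over each Ensembl 3′-UTR, the RPKM and the highest MACS 1.4.2 peak score. Whether counting used strand was not given in the sources used here. The 16 samples are 8 libraries sequenced on lanes 7 and 8, whose reads the authors summed in one column. The 4 tables hold the same counts. The authors' fold changes and p-values were not used. The deposited RPKM served only to recover library totals, and the deposited score only as a call criterion and as a printed value.

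The 495 of 31117 rows without a gene symbol, 0.902% to 1.04% of the reads of a library, were left out. RPM is reads per 1000000 of the remaining 3′-UTR reads. Each pair of libraries was compared with a two-sided Pearson chi-square test over regions with at least 10 reads, with Benjamini-Yekutieli adjustment (Python 3.11.15, pandas 2.3.3, scipy 1.17.1), and 12 such pairs were formed. A gene was represented by its region with the most reads. No ratio was formed from 2 libraries with at most 3 reads each. Segments of one gene with at least 10 reads each were compared with Fisher's exact test, with Benjamini-Hochberg adjustment over all genes, called under 0.05. Intervals are 95% normal intervals of log2 ratios or Wilson intervals of levels. The scripts were tested on simulated data. Motifs were read from the GRCm38 sequence and transcript classes from GENCODE M21. Alternatives were scaling to library totals, TMM (edgeR 4.0.16) or median of ratios, an exact binomial test, the edgeR exact test with a preset coefficient of variation of 0.2, other read minimums, 0.1 reads added, Benjamini-Hochberg adjustment, no score criterion and repeated coordinates dropped. The members and lists were chosen with earlier results of these data known. All members, Cpeb4 and the 3 other hnRNP genes with the most WT Input reads were named by rule.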

Additional observations from a re-analysis of the deposited data

How the results depend on the processing

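No paired analysis was possible because each group was 1 library and the replicate numbers of the labels are lanes summed in one column. The counts are of member regions called higher or lower, and counts not given below stayed within 1.5 times. WT over KO RIP, untreated, had 10 higher and 2 lower: on library totals 18 and 0, with a minimum of 50 reads 1 lower, by the edgeR exact test 6 and 0. After LPS the counts were also 10 and 2: on library totals 24 and 1, with TMM 18 and 1, with median of ratios 1 lower, with a minimum of 50 reads 1 lower, by edgeR 6 and 1. For the Inputs, 0 were lower without treatment and 1 with Benjamini-Hochberg adjustment, and after LPS 1 was lower and 0 by edgeR. KO RIP over Input, untreated, had 11 higher and 5 lower: on library totals 6 and 10, with TMM 7 higher, with median of ratios 7 higher, by edgeR 7 and 2, and with a minimum of 50 reads 0 lower, while after LPS 0 were lower and 8 on library totals. For LPS over untreated, the WT Input had 0 lower, and 3 with a minimum of 50 reads, with Benjamini-Hochberg adjustment or with repeated coordinates dropped. The KO Input had 4 lower, and 0 with TMM, median of ratios or edgeR. The WT RIP had 0 higher and 2 lower: on library totals 9 and 0, with TMM 7 and 1, with median of ratios 7 and 1, with Benjamini-Hochberg adjustment 5 higher, and 1 lower with a minimum of 50 reads or by edgeR. The KO RIP had 5 higher and 2 lower: by edgeR 1 and 0, and 0 higher with a minimum of 50 reads. The median input-corrected ratio was 1.51 (untreated) and 2.09 (LPS) on library totals. Among called ratios, library totals turned the sign of Hnrnpa2b1 (WT over KO RIP, LPS) and of Hnrnpk (KO RIP over Input, untreated, -0.18). The shifts on library totals follow from the share of 3′-UTR reads in each library, and why these shares differ was not tested. The cause of the shifts with the other settings was not tested. Read depth limits Hnrnpa1 and Hnrnpa3 (at most 10 reads), the Inputs of Hnrnpf and the KO RIP of Hnrnpd.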
